A study of Mus musculus with 6 samples.

Results

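Of 75738 consensus regions of open chromatin in mouse back skin epidermis, 925 (1.22%) had a peak in both libraries of interfollicular epidermis (IFE) and in none of the touch dome and hair follicle (HF) libraries. These IFE-only regions were chosen by the presence and absence of peaks in the same 6 lists, merged wherever peaks overlapped by at least 1 bp, so their number and their pattern over the libraries are a description and carry no test. Open DNA was mapped by ATAC-seq, in which a transposase inserts adapters where nucleosomes leave DNA accessible. Cells were EPCAM and α6-integrin positive keratinocytes sorted from 60-day-old C57BL/6 mice that carried TNC-CREER, a tamoxifen-inducible recombinase driven by the tenascin-C gene, and a tdTomato reporter. Tamoxifen (100 µg per g) had been given to every mouse at 51 and 52 days of age. IFE cells were SCA1 positive and tdTomato negative, touch dome cells were SCA1 and tdTomato positive, and HF cells were negative for both, with 2 libraries of 50000 cells each. Nothing in the labels ties the libraries to separate animals, and the tdTomato-negative gate cannot tell cells outside touch domes from touch dome cells whose reporter had not recombined.

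The interfollicular epidermis is the stratified epithelium between hair follicles. Its basal keratinocytes adhere to the basement membrane through integrins and hemidesmosomes, divide, and send daughters upward to build the barrier. Much of the difference between cell types of one tissue lies in distal elements, often enhancers, whose accessibility depends on the transcription factors bound there. AP-1 dimers of Fos and Jun proteins, p63 and AP-2 factors are prominent among the factors that act on keratinocyte enhancers.

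Promoters were a small part of the IFE-only regions, but they are the part whose sequence can be read. Of the 925 regions, 22 touched a promoter window of RefSeq (GRCm38.p6, the assembly of mm10). A window runs from 250 bases before to 50 bases after a gene's start. Windows were touched by 12 of 855 touch dome-only and 131 of 5249 HF-only regions. The counts were 148 of 4941 regions open in IFE and touch dome but not HF, and 9848 of 34250 open in all 6 libraries. The 22 IFE-only regions reached 23 genes, 12 of them protein-coding. The letters TGAGTCA, the AP-1 recognition sequence, or their complement TGACTCA stood in 7 of these 23 windows (30.4%). The share was 0 of 12 windows at touch dome-only regions, 7.19% of 139 windows at HF-only regions and 17.8% of 152 windows at regions open in all IFE and touch dome libraries and no HF library. It was 3.75% of 11317 windows at regions open in all 6 libraries, 5.89% of the 14394 windows without a region, and 5.17% over one window for each of 27025 genes. In 6 of the 7 windows the match lay inside the IFE-only region, and in the seventh, at Zfp57, outside it. With any middle base (TGANTCA) the count was again 7 of 23, against 2 of 12 at touch dome-only regions and 7.93% of all windows. The fixed middle base was adopted during the analysis, so both forms are given. A match is a run of letters and not a measured binding site.

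The following 4 windows show the match in capitals, and the fifth, at the widest IFE-only region on a protein-coding start, has none. Capn8 encodes a calpain protease (chr1:182564757-182565056, plus strand), Cd68 a lysosomal membrane protein of macrophages (chr11:69666121-69666420, minus strand), and Eci3 an enoyl-CoA isomerase of fatty acid oxidation (chr13:34963760-34964059, minus strand). Junos is a non-coding RNA gene whose start lies nearer to Jun than to other protein-coding genes (chr4:95094563-95094862, plus strand), and 1810058I24Rik is listed as protein-coding (chr6:35256741-35257040, plus strand). All are written 5′ to 3′ on the gene's strand. The genes other than Eci3 were chosen after their matches were seen.
Capn8: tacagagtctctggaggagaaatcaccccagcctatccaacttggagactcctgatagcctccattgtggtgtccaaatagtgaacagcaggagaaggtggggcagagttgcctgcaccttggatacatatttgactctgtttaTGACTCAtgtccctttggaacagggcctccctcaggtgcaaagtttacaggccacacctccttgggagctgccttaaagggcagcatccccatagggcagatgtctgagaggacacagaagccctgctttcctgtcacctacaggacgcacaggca
Cd68: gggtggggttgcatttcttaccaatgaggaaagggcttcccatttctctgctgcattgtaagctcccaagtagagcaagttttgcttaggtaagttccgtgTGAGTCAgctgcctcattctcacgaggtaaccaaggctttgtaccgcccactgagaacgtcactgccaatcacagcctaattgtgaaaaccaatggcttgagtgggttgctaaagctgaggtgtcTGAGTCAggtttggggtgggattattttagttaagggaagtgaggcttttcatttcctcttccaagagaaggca
Junos: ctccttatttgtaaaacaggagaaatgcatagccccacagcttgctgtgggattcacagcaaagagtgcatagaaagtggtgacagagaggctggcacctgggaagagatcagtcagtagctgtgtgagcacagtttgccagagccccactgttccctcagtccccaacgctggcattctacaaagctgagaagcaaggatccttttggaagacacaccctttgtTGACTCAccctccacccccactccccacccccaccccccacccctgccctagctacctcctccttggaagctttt
1810058I24Rik: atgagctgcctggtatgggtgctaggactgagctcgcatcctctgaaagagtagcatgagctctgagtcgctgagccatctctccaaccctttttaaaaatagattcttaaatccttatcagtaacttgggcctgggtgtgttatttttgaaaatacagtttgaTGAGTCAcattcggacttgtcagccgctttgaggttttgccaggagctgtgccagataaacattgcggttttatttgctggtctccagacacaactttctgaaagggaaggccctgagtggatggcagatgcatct
Eci3: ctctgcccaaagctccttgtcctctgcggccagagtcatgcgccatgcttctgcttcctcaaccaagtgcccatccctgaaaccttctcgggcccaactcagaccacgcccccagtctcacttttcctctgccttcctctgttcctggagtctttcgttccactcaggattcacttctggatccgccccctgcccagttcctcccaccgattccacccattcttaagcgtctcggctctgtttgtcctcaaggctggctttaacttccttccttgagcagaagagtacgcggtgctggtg

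The match began 106 bases before the start of Capn8, 25 bases before that of Junos and 86 bases before that of 1810058I24Rik. Cd68 held it in 2 places, 149 and 24 bases before its start. The peaks over these windows were short. They measured 407 and 346 bp in IFE replicates 1 and 2 at Capn8, 307 and 308 bp at Cd68, 639 and 417 bp at Junos, and 312 and 307 bp at 1810058I24Rik. The Eci3 region had 392 and 942 bp and also covers the window of Gm16984, a non-coding gene on the opposite strand. Base composition of the 23 windows was intermediate, with a median of 6 CpG sites each, against 22 at regions open in all 6 libraries and 3 in windows without a region. Other short motifs were counted on both strands in the same way. The E-box CANNTG stood in 91.3% of the 23 windows and 72.1% of all windows, the KLF-type CCACCC in 52.2% and 30.9%, the GC box GGGCGG in 39.1% and 35.9%, and the CCAAT box in 21.7% and 37.9%. TATAAA was in 13.0% and 14.2%, the TEAD letters GGAATG in 13.0% and 14.6%, the C/EBP letters TTGCNNAA in 13.0% and 10.8%, the RUNX letters TGTGGT in 17.4% and 16.9%, and the GATA letters AGATAA in 8.70% and 11.4%. TGANTCA contains TGAGTCA, and matches of different motifs in a window may share bases.

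The size of the class depended most on IFE replicate 2 and touch dome replicate 2. The lists held 52219 and 51124 peaks in IFE replicates 1 and 2, 50153 and 59250 in touch dome, and 54844 and 57131 in HF. Without read counts, heights or p-values in the lists the sequencing depth is unknown, and a region called closed is one where the peak caller reported nothing. Besides the 925 regions, 1590 had a peak in both IFE libraries and touch dome replicate 2 alone of the others, against 265 with touch dome replicate 1 alone. HF replicate 1 alone accounted for 75 and HF replicate 2 alone for 116. A further 1863 regions had a peak in IFE replicate 1 alone and 683 in IFE replicate 2 alone. Without touch dome replicate 2 the rule kept 2544 regions (3.44% of 73973 consensus regions), all 925 among them, and without touch dome replicate 1 it kept 1192. With a single IFE library required it kept 1642 (without IFE replicate 1) and 2802 (without IFE replicate 2). Leaving out a library loosens the rule, so a rise is built in, but the rise differed between the touch dome replicates. The same rule gave 855 touch dome-only regions (1.13%) and 5249 HF-only regions (6.93%). Set against one population at a time, both IFE libraries and neither touch dome library had a peak in 1360 regions (1.8%), and both IFE libraries and neither HF library in 7721 (10.2%).

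**Figure D1:**
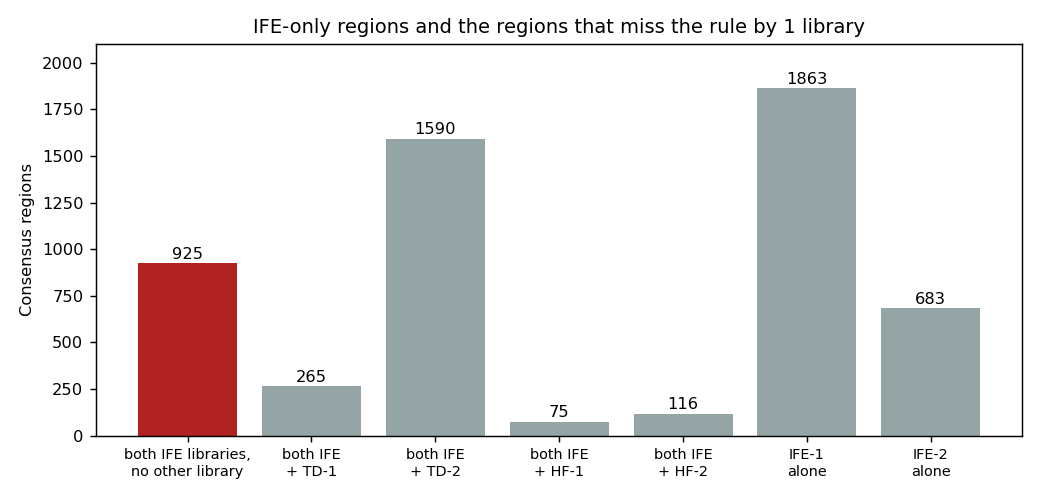
Number of consensus regions (vertical axis) for IFE-only regions (red) and for regions that differ from the rule in 1 library (grey), with TD for touch dome. The 1590 regions shared with touch dome replicate 2 alone outnumber the 925 IFE-only regions.

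IFE-only regions were narrow in both IFE libraries. Their peaks had a median of 437 bp in IFE replicate 1, where all peaks had 936 bp, and 397 bp in IFE replicate 2, where all peaks had 896 bp. The middle 50% of their widths ran from 361 to 562 bp and from 341 to 487 bp, close to the shortest peaks of the lists at 292 and 297 bp. Only 3.35% and 1.19% of these peaks were wider than the median peak of their library. Peaks at touch dome-only regions had medians of 511 and 588.5 bp in the touch dome libraries, and 13.9% and 19.9% of them exceeded the library median. Peaks at HF-only regions had medians of 538 and 529 bp in the HF libraries, with 11.9% and 14.0% above the library median. The strength of these peaks was not tested, since the lists hold no height. At regions just outside the rule the IFE medians were 526 and 465.5 bp where touch dome replicate 2 alone joined in. They were 515 and 414 bp with touch dome replicate 1, 439 and 420 bp with HF replicate 1 and 426 and 426.5 bp with HF replicate 2. At regions open in IFE replicate 1 alone the median was 385 bp, and in IFE replicate 2 alone 358 bp. The rule drops a region once any touch dome or HF peak touches it, and a wider region has more room for that. How far the rule itself favours narrow peaks was not tested.

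**Figure D2:**
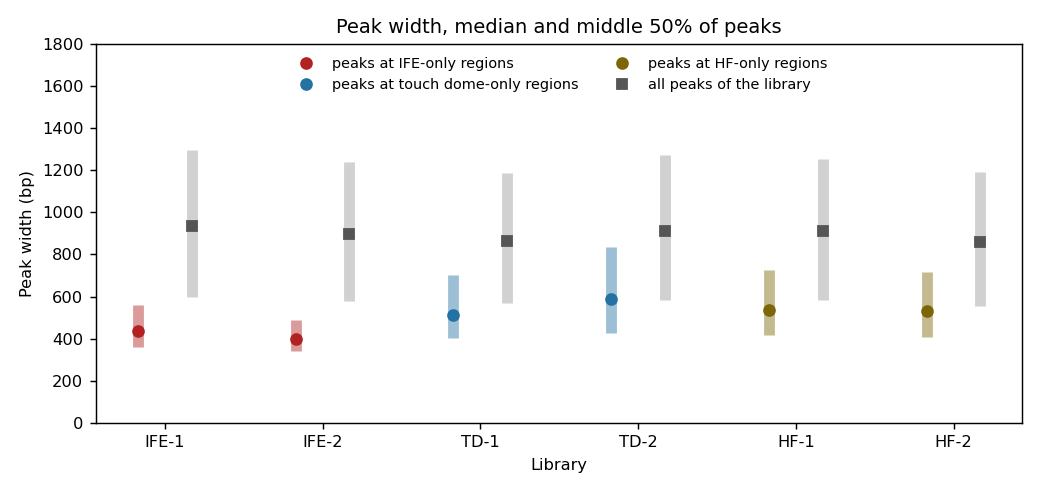
Peak width in bp in each library, as the median (symbol) and the middle 50% (bar), for peaks at the regions particular to that library's population by the rule (coloured) and for all its peaks (grey). The 2 IFE libraries have the lowest coloured medians, 437 and 397 bp.

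That the IFE peaks of a region meet follows from the rule, and how far they overlapped is a description. Both libraries shared a median of 349 bp, where the median region measured 497 bp. In 91.2% of the 925 regions the shared stretch covered at least 80% of the narrower peak, against 98.2% of the regions open in IFE and touch dome but not HF and 99.3% of those open in all 6 libraries. The peak centres lay a median of 42.5 bp apart, against 41 and 32.5 bp in those classes. IFE replicate 1 had the wider peak in 580 IFE-only regions (62.7%), against 71.3% and 64.7% of regions in those classes. The Pearson correlation of peak widths between both IFE libraries was 0.45 across the 925 regions. It was 0.84 across 4941 regions open in IFE and touch dome and 0.94 across 34250 open in all libraries. A correlation also depends on the spread of widths, and IFE-only peaks lay in a narrow range of widths. The lower value therefore does not show that widths were less alike there, and differences in bp were not compared between classes. These correlations are over regions of the same pair of libraries, and regions are not replicates.

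The class was distal. Within 1 kb of either end of a protein-coding gene lay 46 IFE-only regions (4.97%, 95% exact binomial interval 3.66 to 6.58, which covers counting error only), against 17.8% of all regions and 32.5% of those open in all 6 libraries. Touch dome-only and HF-only regions had 3.04% and 3.87%. Among all regions of 305 to 423 bp, 423 to 497 bp and 497 to 616 bp, the lower width ranges of the class, the share near gene ends was 5.63%, 5.96% and 6.36%. IFE-only regions of these 3 ranges had 5.65%, 3.98% and 4.22%, so at 305 to 423 bp the shares were alike. Among regions of 616 to 2401 bp the share was 6.03% of 232 IFE-only regions, against 21.1% of all 53969 regions. That range is broad, so the latter comparison is not matched for width. Another 415 IFE-only regions (44.9%) lay deeper inside gene spans and 304 (32.9%) outside them within 50 kb. Beyond 50 kb from any protein-coding gene were 160 (17.3%, interval 14.9 to 19.9). That share was 29.0% (26.0 to 32.2) for touch dome-only regions, 25.5% (24.4 to 26.7) for HF-only regions and 17% for all regions. With touch dome replicate 2 left out, 4.17% lay near gene ends and 19.9% beyond 50 kb. Spans of non-coding lncRNA genes held 113 of the regions (12.2%), against 13.7% of all regions.

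**Figure D3:**
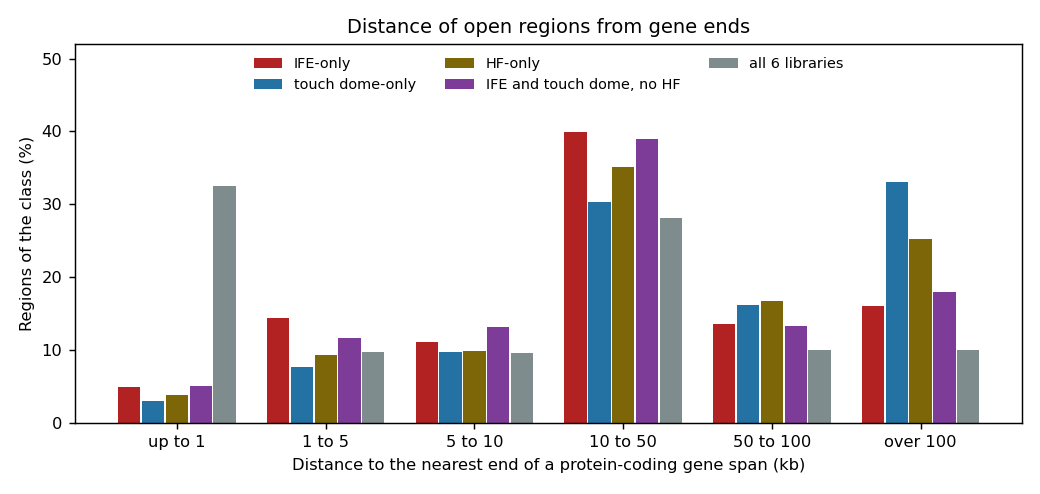
Share of each class of regions (vertical axis, %) by distance to the nearest end of a protein-coding gene span (horizontal axis, kb). IFE-only regions (red) have 39.9% between 10 and 50 kb and 16% beyond 100 kb, where touch dome-only regions (blue) have 33.1%.

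IFE-only regions usually stood near chromatin that other populations also had open. The nearest touch dome or HF peak was a median of 4247 bp away, and 516 regions (55.8%) had one within 5 kb. Measured in the same way against the other 4 libraries, the median was 12416 bp for touch dome-only and 7425 bp for HF-only regions, with 25.3% and 38.3% within 5 kb. Only 37 IFE-only regions (4%) had no touch dome or HF peak within 50 kb, against 22.2% of touch dome-only regions and 9.79% of HF-only regions. An open region of all 6 libraries lay within 10 kb of 490 IFE-only regions (53.0%), and a region open in IFE and touch dome but not HF within 50 kb of 371 (40.1%). No share over all consensus regions stands beside these values, so they are not shown to be particular to the class. Of the 75738 consensus regions, 34250 were open in all 6 libraries. Within 50 kb of another IFE-only region lay 106 IFE-only regions (11.5%). Within 50 kb of an HF-only region lay 249 (26.9%) and within 50 kb of a touch dome-only region 32 (3.46%). The IFE-only, HF-only and touch dome-only classes hold 925, 5249 and 855 regions, so the shares are not comparable across classes of different size. Between other consensus regions 891 IFE-only regions stood singly, and the rest formed 17 adjacent pairs. Their share of all regions ranged from 1.00% on chromosome 14 to 1.54% on chromosome 15 over the autosomes and X.

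By the nearest protein-coding gene within 50 kb, 765 of the regions fell to 691 of 15553 genes with any region. Of those genes, 627 had 1 IFE-only region, 57 had 2 and 7 had 3 or more. Genes with an IFE-only region had a median of 7 consensus regions, against 2 over all genes. Of the 691 genes, 604 (87.4%) also had a region open in all 6 libraries, 281 (40.7%) one open in IFE and touch dome but not HF, 225 (32.6%) an HF-only region and 37 (5.35%) a touch dome-only region. Over all 15553 genes these shares were 84.5%, 17.7%, 17.1% and 3.38%. In 29 genes, Cd68 among them, the IFE-only regions were the only regions.

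With all libraries, Cdh4 had the most IFE-only regions. The gene encodes R-cadherin, a calcium-dependent cell adhesion molecule, and lies on chromosome 2 from 179442423 to 179899377 (mm10). IFE replicates 1 and 2 were open at 12 and 11 of its 14 consensus regions, touch dome at 6 and 8, and HF at 3 and 3. Its 5 IFE-only regions had peaks of 461 and 456 bp, 770 and 410 bp, 320 and 413 bp, 788 and 492 bp, and 354 and 302 bp in IFE replicates 1 and 2. Another 4 of its regions were open in all IFE and touch dome libraries and no HF library. The region at the lower-numbered end of the span was the single one open in all 6 libraries. Regions shared with touch dome stood beside IFE-only ones, with the nearest touch dome peak 1422 bp from the first and 1128 bp from the third IFE-only region. The nearest HF peak was 43267 bp or more from each of the 5.

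Slc16a10, which encodes a transporter of aromatic amino acids and thyroid hormone, had 4. On chromosome 10 from 40033532 to 40142270, its 18 regions were open in 13 and 13 cases in IFE, 8 and 9 in touch dome, and 11 and 9 in HF. The IFE-only peaks measured 535 and 540 bp, 299 and 310 bp, 482 and 321 bp, and 938 and 377 bp in IFE replicates 1 and 2. The first of these rests on peaks that shared 201 bp of an 874 bp region. The locus also had 3 HF-only regions between regions open everywhere, so both populations had regions of their own in it. Without touch dome replicate 2, Cdh4 had 6 and Slc16a10 5, and Tead1 reached 6, a gene chosen after that alternative was seen. Without IFE replicate 2, Cdh4 had 6 and Rora 9. With the same number of widest peaks taken from each library Cdh4 had 3, and Trpm3, Sox6 and Pde4d 4 each, so the order of the leading genes depends on the lists used. With the wider 50% of peaks Trpm3 had 2 and Xylt1 1, while Cdh4, Slc16a10, Sox6, Pde4d, Ly86, Serpinb7, Hmgn2 and Ust had 0.

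**Figure D4:**
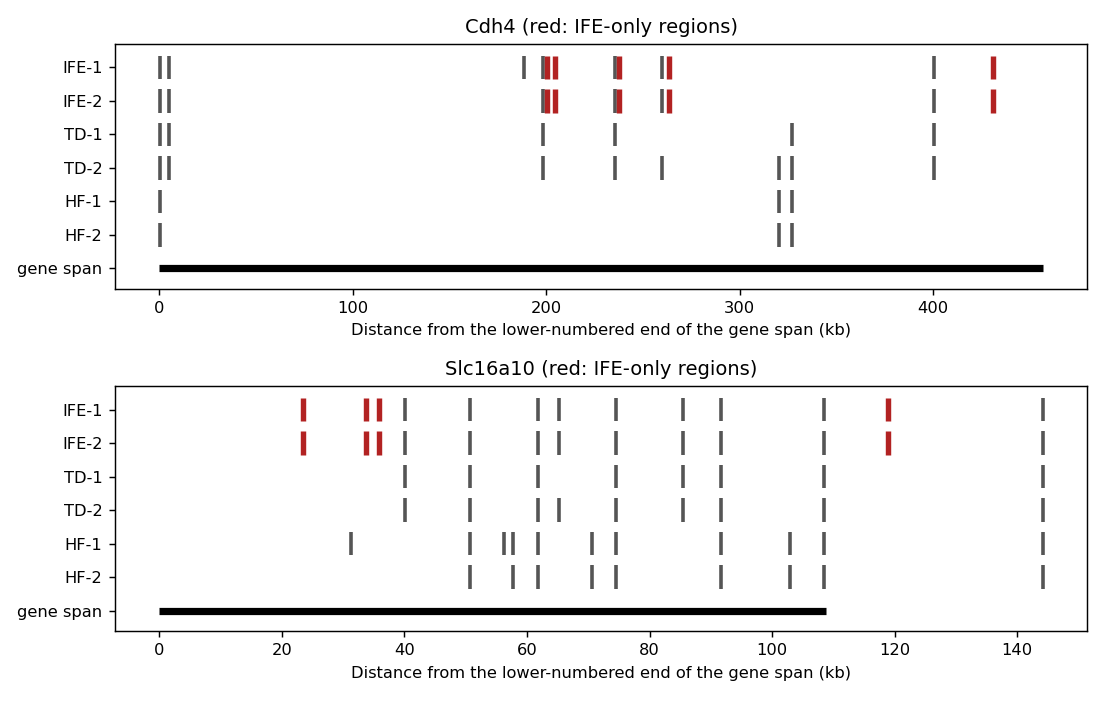
Consensus regions given to Cdh4 (top) and Slc16a10 (bottom), each drawn as a tick in every library with a peak there, against distance in kb from the lower-numbered end of the gene span (black bar). IFE-only regions are red, 5 at Cdh4 and 4 at Slc16a10, and TD stands for touch dome.

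Another 5 genes had 3 IFE-only regions each, namely Trpm3 (a cation channel gene), Xylt1 (the xylosyltransferase that starts glycosaminoglycan chains), Sox6 (a transcription factor), Pde4d (a cAMP phosphodiesterase) and Ly86 (a partner of an immune receptor). At Sox6, 19 and 17 of 22 regions were open in IFE, 11 and 14 in touch dome and 6 and 9 in HF, so HF had the fewest. At Xylt1 the libraries were close, with 20 and 19 of 26 regions in IFE, 17 and 21 in touch dome and 19 and 19 in HF. Trpm3 had 20 and 17 of 33 in IFE, 12 and 20 in touch dome and 19 and 21 in HF. Pde4d had 33 and 31 of 44 in IFE, 27 and 30 in touch dome and 22 and 28 in HF. Ly86, whose 3 regions all lay 35191 bp or more outside the gene, had 14 and 13 of 16 in IFE, 10 and 12 in touch dome and 7 and 7 in HF, and it had no IFE-only region with a gene window of 10 kb. The counts of 3 moved with single libraries. Without IFE replicate 2 there were 6 at Trpm3 and 5 at Sox6, and without touch dome replicate 2 there were 5 at Sox6 and 5 at Pde4d. The remaining genes of the leading 10, with 2 IFE-only regions each, were, with all libraries, Serpinb7 (a serine protease inhibitor of the epidermis), Hmgn2 (a nucleosome-binding protein) and Ust (a sulfotransferase acting on glycosaminoglycans). Serpinb7 had 9 and 7 of 9 regions open in IFE, 5 and 5 in touch dome and 3 and 3 in HF, and its count of IFE-only regions was 4 without IFE replicate 2. Hmgn2 had 4 and 4 of 5 in IFE, 2 and 2 in touch dome and 3 and 3 in HF, while Ust was open about as often in each population, at 20 and 19 of 29 in IFE, 18 and 21 in touch dome and 21 and 23 in HF.

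The regions with the widest peaks in both IFE libraries included 4 inside gene spans and 6 outside them. The leading one, on chromosome 19 from 5516440 to 5518114, 5732 bp outside the sorting nexin gene Snx32, had peaks of 1550 and 1574 bp in IFE replicates 1 and 2, and its nearest touch dome or HF peak was 5176 bp away. Next came a region 1318 bp outside Gem, which encodes a small GTP-binding protein, with 1357 and 1194 bp (chromosome 4, 11716311 to 11717667). The third lay 18198 bp from Cyp2b19, a cytochrome P450 gene of mouse keratinocytes, with 1133 and 1023 bp (chromosome 7, 26737812 to 26738944). Regions within Trpm3 (1090 and 969 bp), Xylt1 (949 and 1002 bp) and Enpp6 (928 and 966 bp) followed. The region near Dpp6 had 990 and 921 bp, that near Ptp4a2 1210 and 811 bp, that within B3galnt2 941 and 794 bp, and one beyond 50 kb of any gene on chromosome 18 had 966 and 827 bp.

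IFE basal keratinocyte genes held 7 IFE-only regions among 275 (2.55%), at 5 of 25 genes. Over all genes 1.22% of regions were IFE-only, and 691 of 15553 genes (4.44%) had such a region. The same list held 1 touch dome-only (0.364%) and 16 HF-only regions (5.82%), against 0.967% and 6.22% over all genes. With touch dome replicate 2 left out it held 12 of 272 (4.41%), where all genes had 3.31%. Sox6, one of the 10 genes with the most IFE-only regions, contributed 3 of the 7, from its 22 regions. The list was written with earlier results of these data known. Itgb1, the β1-integrin gene, had 1 region with 455 and 308 bp in IFE replicates 1 and 2, 30637 bp outside the gene. Tfap2c, which encodes the AP-2γ factor, had 1 of 349 and 376 bp, and Trp63, the p63 gene, had 1 among 33 regions. No list was tested, and its members' loci differ in number of regions.

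Ly6a encodes SCA1, the antigen that all IFE and touch dome cells carried by the sort and HF cells lacked. Its IFE-only region lay on chromosome 15 from 75001268 to 75001795, 3237 bp outside the gene, with peaks of 528 and 434 bp in IFE replicates 1 and 2. All 5 regions of Ly6a were open in both IFE libraries, 4 in each touch dome library and 2 in each HF library. Of the other sort marker genes, Epcam, Itga6 and Tnc had none of the 925 regions, though Itga6 had 4 without IFE replicate 2.

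The list of suprabasal and barrier genes had 1 IFE-only region among 191 (0.524%), where all genes had 1.22%. It was at Cers3, a ceramide synthase gene, with 560 and 450 bp. Leaving out touch dome replicate 2 gave 6 of 191 (3.14%), at 6 of 29 genes, where 1673 of all 15466 genes had one. Adhesion and hemidesmosome genes had 9 of 369 (2.44%), 5 of them at Cdh4 and 1 each at Itgb1, Cd9, Lamc1 and Dsc2, among 34 genes. Of these, Cd9 encodes a tetraspanin (460 and 339 bp) and Lamc1 the laminin γ1 chain (420 and 310 bp). Cdh4 had the most IFE-only regions of all genes, 5 of its 14 regions, and the adhesion share rests largely on it. The lists were written with earlier results of these data known, so a share above that of all genes is no separate evidence. Without touch dome replicate 2 the adhesion list had 17 of 365 (4.66%), where all genes had 3.31%, and Lamc1 had 3. Transcription factors of epidermis had 16 of 760 (2.11%) at 11 of 67 genes, and 29 of 757 (3.83%) without that library. With all libraries, 691 of 15553 genes (4.44%) had an IFE-only region. Those 67 genes held 760 regions, where the median over all genes was 2 regions per gene. Among them the nuclear receptor gene Rora had 2 regions (594 and 330 bp, 364 and 502 bp) and the forkhead gene Foxp1 had 2 (830 and 663 bp, 464 and 344 bp). The 2 peaks of the second Rora region shared 14 bp, so it rests on little overlap. Rora had 9 regions without IFE replicate 2 and 4 without touch dome replicate 1, while Foxp1 had 4 without touch dome replicate 2. Itgb1 stands in the basal and adhesion lists and Sox6 in the basal and transcription factor lists, so these shares are not independent.

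**Figure D5:**
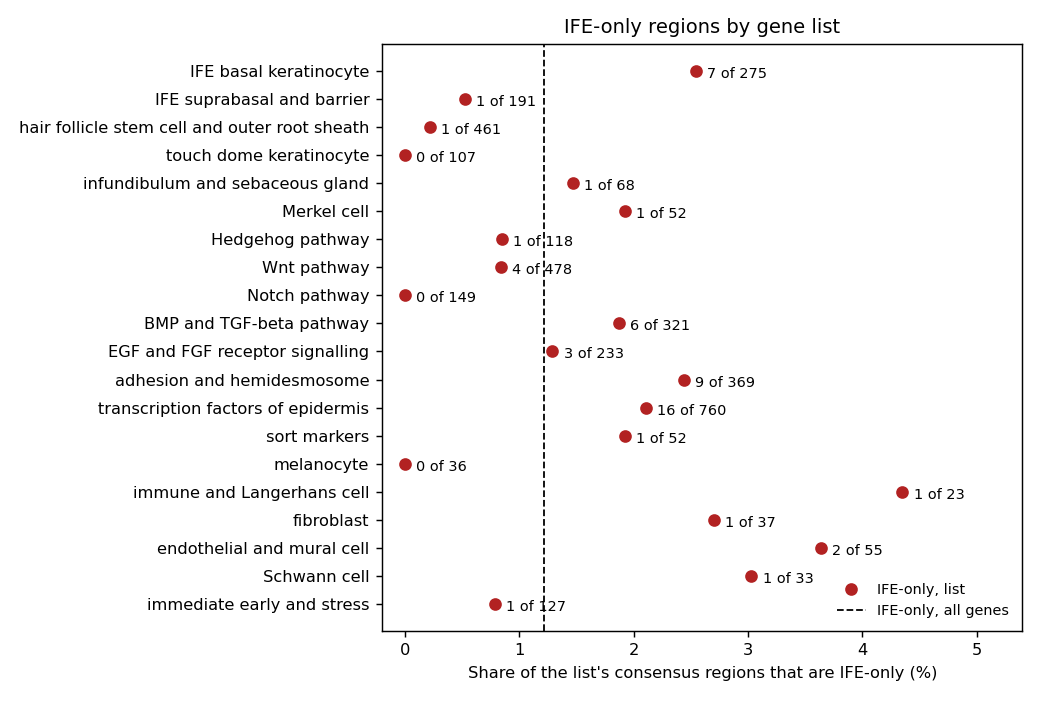
Share of each gene list's consensus regions that were IFE-only (horizontal axis, %; red points, with the counts beside them) and the share over all genes of 1.22% (dashed line). Lists with few regions, such as the 23 of the immune list, move by several percentage points with 1 region.

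Shares of IFE-only regions at genes of signalling pathways lay on both sides of the 1.22% over all genes. BMP and TGF-beta genes had 6 of 321 (1.87%), with 2 at Tgfbr2, a TGF-beta receptor gene (380 and 303 bp, 861 and 493 bp), and 1 each at Tgfb3, Inhbb, Bmp4 and Acvr1b, which encode ligands or a ligand subunit in the first 3 cases and a receptor in the last. EGF and FGF receptor signalling had 3 of 233 (1.29%). These were at the ligand gene Tgfa (778 and 369 bp) and the receptor genes Fgfr2 (581 and 580 bp) and Egfr (490 and 464 bp). Wnt genes had 4 of 478 (0.837%), at Ror1 (a receptor, 605 and 546 bp), Znrf3 (a ubiquitin ligase that removes Wnt receptors, 460 and 489 bp), Wls (the Wnt secretion factor, 406 and 477 bp) and Tcf7l2 (a transcription factor of the pathway, 410 and 326 bp). The Hedgehog list had 1 of 118 (0.847%), at the transcription factor gene Gli3 (331 and 311 bp), and the Notch list 0 of 149. With touch dome replicate 2 left out, where all genes had 3.31%, BMP and TGF-beta genes had 7 of 318, EGF and FGF genes 11 of 235 (4.68%), Wnt genes 9 of 475 (1.89%), Hedgehog genes 4 of 117 (3.42%) and Notch genes 1 of 151 (0.662%). BMP and TGF-beta genes thus moved below the share over all genes and Hedgehog genes above it. Single genes moved too, with 4 regions at Ror1, 3 at Gli3 and 2 at Egfr without that library. Fgfr2 had 5 without IFE replicate 2 and 0 where no other peak was allowed within 1 kb.

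Lists of hair follicle, touch dome, infundibulum and sebaceous gland, and Merkel cell genes held at most 1 IFE-only region each. The share over all genes was 1.22%. Genes of hair follicle stem cells and the outer root sheath had 1 among 461 regions (0.217%), at Tcf7l2, and touch dome genes 0 of 107. Of the same regions 14.1% and 9.35% were HF-only, against 6.22% over all genes. In the touch dome list 2 (1.87%) were touch dome-only, against 0.967% over all genes. Without touch dome replicate 2 the IFE-only counts of the 2 lists were 5 of 454 and 0 of 107. Both lists contain genes known for their activity outside IFE, and earlier results of these data were known when they were written. Infundibulum and sebaceous gland genes had 1 of 68 (1.47%), at the defensin gene Defb6. Merkel cell genes had 1 of 52 (1.92%), at the synaptic vesicle gene Syt1. Both shares were above the 1.22% over all genes, on 1 region each. Without touch dome replicate 2 they were 2 of 68 (2.94%) and 1 of 51 (1.96%), both below the 3.31% over all genes. Immediate early and stress genes had 1 of 127 (0.787%), near Jun. The Jun region is the one that covers the start of Junos, 42228 bp from Jun.

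Marker lists of cell types outside the gate held 0 to 2 IFE-only regions. Immune and Langerhans cell genes had 1 of 23 (4.35%, Cd68), endothelial and mural cell genes 2 of 55 (3.64%, Erg and Acta2), Schwann cell genes 1 of 33 (3.03%, Ngfr), fibroblast genes 1 of 37 (2.70%, Dpt) and melanocyte genes 0 of 36. All but the last exceed the 1.22% over all genes and the 2.55% of the basal list, on 1 or 2 regions each. Without touch dome replicate 2, all genes had 3.31% and the basal list 4.41%. There the immune list had 4.35%, the endothelial and mural list 3.64%, the Schwann list 3.1% and the fibroblast list 2.70%. All of these lay below the basal list, and the Schwann and fibroblast lists lay below all genes too. Of the 19 immune genes, 10 had any region. In sum over the list, 19 and 17 regions were open in IFE, 16 and 18 in touch dome and 14 and 14 in HF. Cd207, the defining Langerhans cell gene, had no region in any library. Ptprc had none in IFE and HF and 1 in each touch dome library. Cd3e, a T cell gene, had 1 in each IFE and touch dome library. Cd74, the invariant chain gene of antigen-presenting cells, had 1 in all 6 libraries. The part of immune cells in the Cd68, Ly86 and other regions was not tested. As a check of the sort, 6 basal genes (Krt14, Krt5, Col17a1, Itgb4, Trp63 and Ly6a) had 51 and 52 of 63 regions open in IFE, 44 and 51 in touch dome and 46 and 48 in HF, so their counts were close in all populations. The 5 suprabasal genes had 15 and 15 of 20 open in IFE, 15 and 17 in touch dome and 17 and 17 in HF. The 5 hair follicle marker genes had 22 and 22 of 48 open in IFE, 30 and 36 in touch dome and 42 and 44 in HF. The 5 touch dome marker genes (Tnc, Krt17, Cadm1, Hhip and Ptch1) had 33 and 32 of 69 open in IFE, 48 and 52 in touch dome and 58 and 51 in HF, and Cadm1 holds 37 of the 69. Tnc alone, whose gene drives the reporter, had 11 and 11 of 17 in IFE, 17 and 17 in touch dome and 13 and 12 in HF. The endothelial gene Pecam1 had 13 and 11 of 13 open in IFE, 10 and 11 in touch dome and 11 and 11 in HF. The 3 Merkel cell markers had 3 and 1 of 3, 1 and 2, and 1 and 1 in the same order. The 3 fibroblast markers had 5 and 3 of 12, 7 and 9, and 11 and 10. The 4 melanocyte markers had 11 and 12 of 22, 16 and 19, and 20 and 20.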

How the data were processed

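Each library had 1 deposited list of peak positions (other values than positions and names, such as scores, are absent), so widths are end minus start of the authors' peaks. The submitters' processing notes name MACS2 (2.2.7.1), Bowtie2 (2.4.5), Trim Galore (0.6.7), SAMtools (1.9) and the build mm10. Their settings and the peak threshold are not stated in the sources used here. Peaks stand per library, so the absence of a peak depends on that library's depth.

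Peaks sharing at least 1 bp were merged with Python 3.11.15, numpy 2.4.6 and pandas 2.3.3. Each region was given to its closest protein-coding gene (21887 spans, RefSeq GRCm38.p6) within 50 kb. Coordinates count from 1. No test was run, because the rule used these lists and regions are not replicates. The scripts were checked on simulated peaks. Members, gene lists and motifs were chosen with earlier results of these data known. Named genes were the 10 with the most regions, up to 4 per list, the sort markers and those with the widest regions on promoter windows, of which Eci3 and Gm16984 are described. Capn8, Junos, 1810058I24Rik, Zfp57, Trp63, Acvr1b, Dsc2, Tead1 and the marker genes of the sort check were named outside that rule, after their values were seen. One gene that the rule names is not reported here. Named regions were the 10 with the widest narrower IFE peak. Alternatives changed merging, cover, distance, peak width, chromosomes, gene windows and libraries.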

Additional observations from a re-analysis of the deposited data

How the results depend on the processing

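No paired analysis was possible because no result came from a test across samples. The 925 IFE-only regions became 1572 with the same number of widest peaks per library and 398 with the wider 50% of peaks; leaving out 1 library gave 1002 to 2802, with 1642 without IFE replicate 1, 2802 without IFE replicate 2 and 2544 without touch dome replicate 2. Touch dome-only and HF-only regions numbered 357 and 2498 with the wider 50% of peaks, and 940 to 2905 and 5427 to 8747 with 1 library left out. Touch dome-only regions numbered 2905 without touch dome replicate 1, 1337 without touch dome replicate 2 and 1291 without IFE replicate 1, and HF-only regions 8747 without HF replicate 1 and 7943 without touch dome replicate 2. Genes with an IFE-only region numbered 1104 with the same number of widest peaks, 311 with the wider 50%, and 751 to 1920 with 1 library left out, the counts without IFE replicates 1 and 2 being 1176 and 1920 and that without touch dome replicate 2 being 1673. The share near gene ends was 8.54% with the wider 50% of peaks and 4.17% to 6.10% with 1 library left out. The median width of 497 bp became 348 bp without merging, where the shared stretch alone counts, 538 bp with 50% cover, 533 bp with the same number of widest peaks, 1107 bp with the wider 50%, and 381 to 547 bp with 1 library left out. Merging within 100 bp (921 regions), a 1 kb distance to other peaks (834), autosomes alone (905) and 50% cover (1129) kept the count within 1.5 times. Of 42 named genes, 39 had an IFE-only region, which follows from their choice, since all but the sort markers were picked for having one. With a 10 kb window 29 of the 42 had one, and with the wider 50% of peaks 7. In the 56 promoter windows touched without touch dome replicate 2, 13 (23.2%) held the AP-1 letters. Depth is unknown, so weak openings below the peak threshold in touch dome or HF cannot be told from closed chromatin.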
